A study of Mus musculus with 270 samples.

Results

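The kidney transcriptome of male C57BL/6J mice was compared between 8 months (M) and 5 M of age, an interval within adult life. The comparison used 17 of the 270 libraries of the series, namely the kidney libraries of 8 mice at 8 M and 9 mice at 5 M, chosen by organ and age alone. All mice were untreated wild-type males of the C57BL/6J strain from 1 cohort, so age was the labelled difference between the groups. Each library was made from powder of the pulverised kidney of 1 mouse and values are gene counts divided by the size factor of the library (normalized counts). In such bulk samples, fewer cells of a type and less RNA per cell cannot be told apart.

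The kidney filters plasma in glomeruli, where podocytes wrap the capillaries, and recovers most of the filtrate along the tubule. Proximal tubule cells take up phosphate, glucose and organic ions and draw their energy mainly from fatty acid oxidation in mitochondria. The thick ascending limb, the distal convoluted tubule and the collecting duct then adjust salt, calcium and water, in part under the hormone aldosterone. In mice the adult kidney is known to respond to androgens, to feeding and to the time of day.

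Libraries held 5230524 to 13460212 reads at 5 M and 5246400 to 28477006 at 8 M, and the difference in log2 depth was within the spread between mice (exact permutation test, two-sided, p = 0.518). The defining markers of kidney were present in each library. *Slc34a1*, the sodium-phosphate cotransporter of the proximal tubule, ranged from 8113 to 26335 normalized counts at 5 M and from 5768 to 26094 at 8 M. The 13 genes encoded by the mitochondrial genome were listed at 0 in all 17 libraries.

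Some kidney libraries held reads of brain genes. The reads of 16 neuronal and glial marker genes made up over 0.1% of the library in 2 of 9 mice at 5 M and 3 of 8 mice at 8 M. At 5 M these were mouse 1 with 1.14% and mouse 2 with 0.812%. At 8 M they were mouse 2 with 0.798%, mouse 1 with 0.303% and mouse 8 with 0.110%, whereas the other 12 libraries held 0.00634% to 0.0685%. The difference in log2 brain share between the ages was within the spread between mice (exact permutation test, two-sided, p = 0.963). In the 5 libraries over 0.1%, the 12 markers of the proximal tubule held 0.513% to 0.845% of reads at 5 M and 0.688% to 1.31% at 8 M, against 1.52% to 1.70% and 1.47% to 1.52% in the others. The first principal component of the 45 kidney libraries of all 6 ages held 41.1% of the variance, and 11 of the 16 brain markers were among the 100 genes that weighed most in it. Counts of list members are therefore also given without the libraries over 0.1%, at any age, wherever a named list gained or lost a member. In addition, 1 library at 5 M and 2 at 8 M carried the letter b at the end of their column names, which the labels do not explain, and their markers of cardiomyocytes reached 0.0155% to 0.0202% of reads, against a median over all libraries of 0.00115% at 5 M and 0.00208% at 8 M. In 3 of the libraries over 0.1% of brain reads (mice 1 and 2 of 5 M and mouse 2 of 8 M) these markers held 0.0142% to 0.0189%. The libraries with the letter b were also the deepest of their ages. They held 13460212 reads (mouse 3 of 5 M), 28477006 (mouse 1 of 8 M) and 13349500 (mouse 7 of 8 M). Mouse 1 of 8 M thus had both the letter b and over 0.1% of brain reads.

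**Figure D1:**
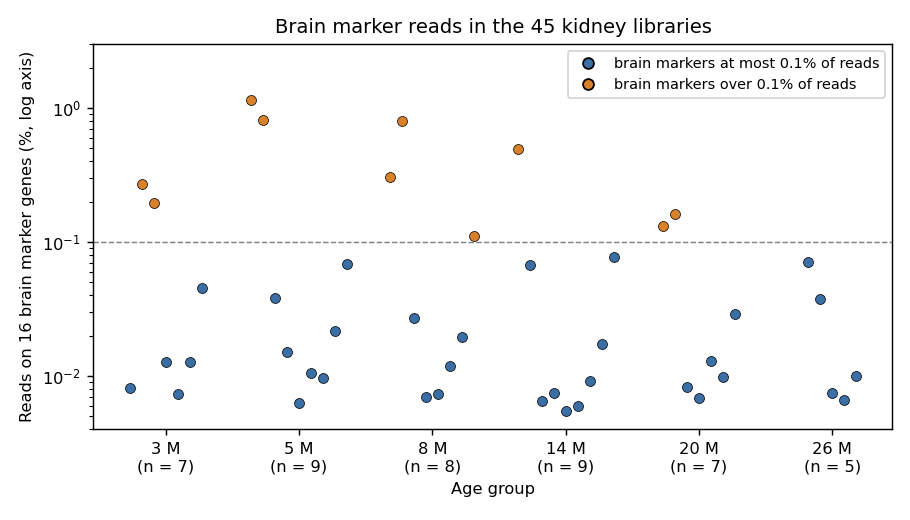
Share of reads on 16 brain marker genes (percent of the library, log axis) in the 45 kidney libraries by age group, each point 1 mouse. The dashed line marks 0.1%, which was passed by 2 of 9 libraries at 5 M and 3 of 8 at 8 M.

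Between 8 and 5 M, no kidney gene passed the threshold of an adjusted p of 0.05 among 16839 genes tested (limma on log2 of the normalized count plus 1, fitted on all 45 kidney libraries), and the smallest adjusted p was 0.171. At an unadjusted p of at most 0.05, 908 genes (5.39% of those tested) were higher and 1087 (6.46%) were lower at 8 M. Without the libraries over 0.1% of brain reads these were 791 (4.7%) and 919 (5.46%), again with 0 genes past the adjusted threshold. The median difference over all genes was -0.00243 on the log2 scale. Among all genes, 16 (0.095%) were higher in each mouse of 8 M than in any of 5 M, and 10 (0.0594%) were lower in each. edgeR called 0 genes, with 1035 higher and 751 lower at an unadjusted p of at most 0.05, and DESeq2 called 4, namely *Shcbp1* higher and *Ctnnb1*, *Crbn* and *Ndst1* lower at 8 M. When the 17 libraries were fitted alone, 117 genes (0.695%) passed the adjusted threshold, 90 of them higher at 8 M, and with libraries weighted by their own scatter (limma array weights) 2006 genes (11.9%) did, 930 of them higher. All 117 genes were among the 2006. Below, a member of a gene list is called higher or lower at an unadjusted limma p of at most 0.05, to be read beside the 5.39% and 6.46% of all genes, and each such difference failed the correction over all genes.

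The same fit gave 1942 genes past the adjusted threshold between 5 and 3 M, 0 between 8 and 3 M (608 at an unadjusted p of at most 0.05) and 109 between 14 and 8 M. These comparisons share the libraries of 5 or 8 M with the present one.

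The 12 genes with the smallest p among those lower at 8 M had log2 differences of -1.36 to -0.49, each with an adjusted p of 0.171 (limma). *Ctnnb1* encodes beta-catenin, which links cadherins to actin and carries Wnt signals, and lies at chromosome 9, 120929216 to 120960507 (GRCm38). Its lowest, median and highest values were 342, 572 and 811 normalized counts at 5 M and 113, 218 and 350 at 8 M, a log2 difference of -1.36 (SE 0.30). The highest mouse of 8 M lay above the lowest of 5 M, and the other 7 lay below the whole 5 M range. *Crbn* encodes cereblon, the substrate receptor of a cullin-RING ubiquitin ligase (chromosome 6, 106780201 to 106800077), and its values were 235, 379 and 550 at 5 M and 62.9, 167 and 238 at 8 M (log2 difference -1.28, SE 0.29). *Ndst1*, an enzyme that sulfates heparan sulfate chains (chromosome 18, 60684494 to 60748650), stood at 354, 499 and 704 at 5 M and 205, 262 and 416 at 8 M (log2 difference -0.88, SE 0.21). In both genes the groups overlapped only at their edges.

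*Nipal3*, of the NIPA family of magnesium transporters, was the one of these 12 without overlap, with 190 to 256 normalized counts at 5 M and 108 to 187 at 8 M (medians 218 and 155, log2 difference -0.56, SE 0.14). *Otud6b*, a deubiquitinase, had a mean of 913 ± 138 (SD, n = 9) at 5 M and 563 ± 112 (SD, n = 8) at 8 M. *Stag2* encodes a subunit of cohesin, the ring that holds sister chromatids, and averaged 1002 ± 121 and 722 ± 152. *Ddx3x*, an X-linked RNA helicase of translation initiation, averaged 3333 ± 566 and 2189 ± 552, with 2607 to 4150 at 5 M and 1615 to 3391 at 8 M. Another 4 had log2 differences of -0.66 to -0.53, namely *Pip4k2c*, a phosphoinositide kinase, *Atp11b*, a phospholipid flippase, *Dync1li1*, a light intermediate chain of the dynein motor, and *Casc4*.

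The 12 genes with the smallest p among those higher at 8 M had log2 differences of 0.42 to 1.13, each again with an adjusted p of 0.171 (limma). *Mgp* encodes matrix Gla protein, an inhibitor of vascular calcification, and lies at chromosome 6, 136872435 to 136875823 (GRCm38). Its lowest, median and highest values were 184, 317 and 427 normalized counts at 5 M and 488, 573 and 956 at 8 M (log2 difference 0.95, SE 0.23), and it was the one of these 12 without overlap. *Ccn2*, a secreted matricellular protein also known as connective tissue growth factor (chromosome 10, 24595442 to 24598683), stood at 327, 383 and 524 at 5 M and 473, 570 and 910 at 8 M. Its log2 difference was 0.67 (SE 0.17), and 0.45 (SE 0.20) without the libraries over 0.1% of brain reads, 2 of which held its highest values at 8 M. *Map2k3*, a kinase that activates p38, averaged 227 ± 31.4 (SD, n = 9) at 5 M and 303 ± 46.6 (SD, n = 8) at 8 M.

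The other genes higher at 8 M were mostly long. *Supt3*, a subunit of the SAGA histone acetyltransferase complex, spans 342 kb on chromosome 17 and had 76.9, 100 and 153 normalized counts at 5 M and 129, 203 and 247 at 8 M (log2 difference 0.93, SE 0.22). The 8 M mice lay above the 5 M range except 1 mouse at 129. *Snx29*, of the sorting nexin family, spans 433 kb on chromosome 16, with 588, 1234 and 2134 at 5 M and 1596, 2653 and 3863 at 8 M. *Atxn1*, the transcriptional corepressor ataxin-1, spans 415 kb on chromosome 13, with 570, 783 and 1363 at 5 M and 1067, 1723 and 2386 at 8 M. Their log2 differences were 1.04 (SE 0.25) and 1.13 (SE 0.29), and in both the ranges overlapped. *Slc25a21*, a mitochondrial carrier of oxodicarboxylates, spans 485 kb on chromosome 12 and averaged 1004 ± 340 at 5 M and 1993 ± 564 at 8 M. *Zfand3*, a zinc finger protein, averaged 640 ± 78.0 and 956 ± 91.2, and its highest 5 M value of 831 came from 1 mouse, the next being 677. *Arhgap26*, a regulator of small GTPases, *Glis1*, a zinc finger transcription factor, *Acss3*, a mitochondrial acyl-CoA synthetase, and *Poc1b*, a centriole protein, had log2 differences of 0.64 to 0.88.

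*Shcbp1*, an SHC-binding protein, had the smallest p of all genes but a mean under 50 normalized counts, and is named here after its values were seen. It ranged from 12.8 to 27.2 at 5 M and from 27.2 to 107 at 8 M, with medians of 17.7 and 64.1, the highest mouse of 5 M lying just below the lowest of 8 M (log2 difference 1.77, SE 0.38, limma adjusted p = 0.171).

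**Figure D2:**
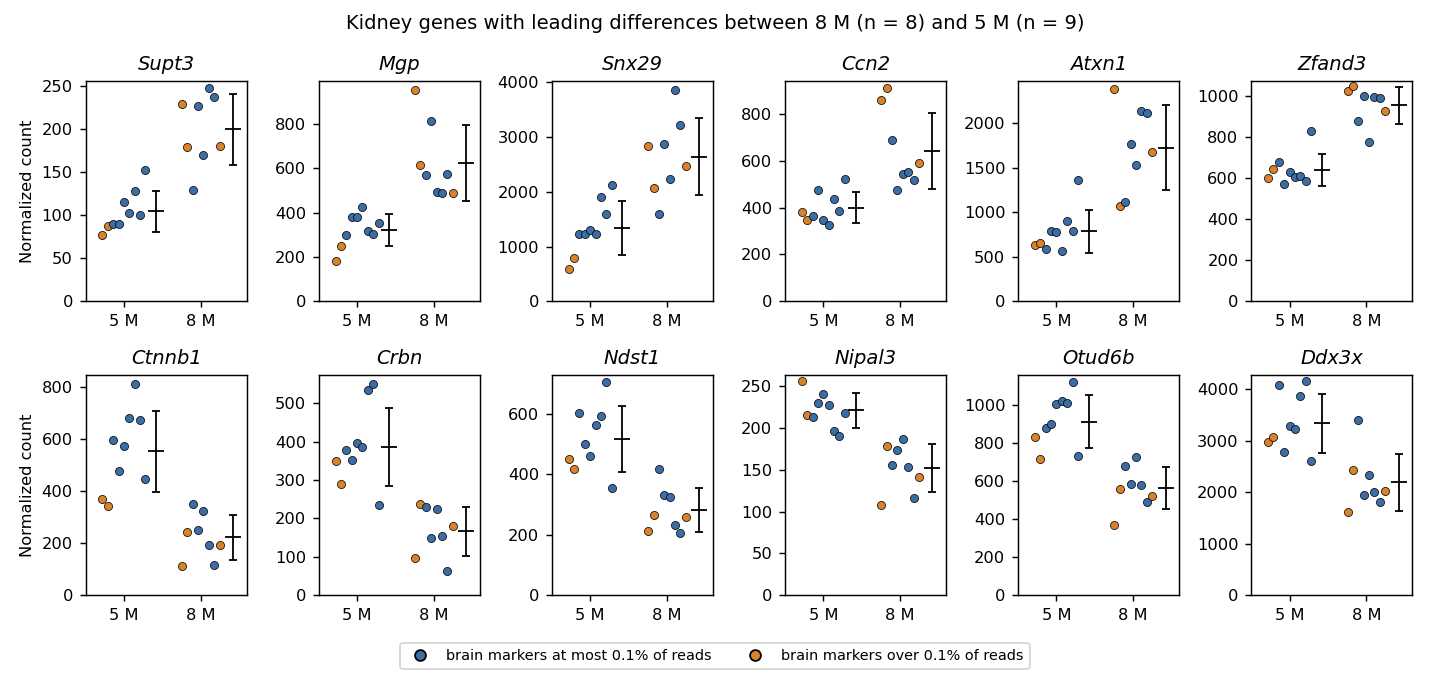
Normalized counts of 12 of the 24 leading kidney genes at 5 M (n = 9) and 8 M (n = 8), each point 1 mouse, with the mean and SD beside each group and orange points for libraries with over 0.1% of brain reads. *Mgp* ranged from 184 to 427 at 5 M and from 488 to 956 at 8 M, while *Ctnnb1* ranged from 342 to 811 and from 113 to 350.

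Without the libraries over 0.1% of brain reads, all 24 leading genes kept their direction, with an unadjusted p of at most 0.05, and log2 differences of 0.34 to 1.08 and -1.38 to -0.36. When the 17 libraries were fitted alone, 8 of the 12 higher and 6 of the 12 lower genes passed the adjusted threshold, edgeR called none of the 24, and array weights called all 24. These genes were chosen by their p in these libraries, so the counts are a description. In all 24 genes the mean at 3 M differed from that at 5 M in the direction of 8 M, and the mean at 14 M lay back from that at 8 M towards 5 M or beyond it. *Ctnnb1*, for example, had mean normalized counts of 150 (3 M), 552 (5 M), 223 (8 M) and 714 (14 M), and those of *Snx29* were 3773, 1333, 2647 and 1789. *Mgp* (461 at 3 M and 565 at 14 M), *Ccn2* (500 and 405) and *Map2k3* (276 and 225) had their highest mean of these 4 ages at 8 M. The means of 5 and 8 M chose the genes, so the position of 3 and 14 M beside them is a description.

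In heart, lung, skeletal muscle and testis of the same mice, no gene passed the adjusted threshold between 8 and 5 M. At an unadjusted p of at most 0.05 there were 353 genes in heart (2.23% of 15842), 269 in lung (1.27% of 21257), 288 in skeletal muscle (1.65% of 17430) and 339 in testis (1.73% of 19613). None of the 24 leading kidney genes had such a p in any of the 4 organs, in all of which they were tested. The test of the difference itself took the kidney value of each mouse minus its mean over the 4 organs. It called 0 of 13645 genes (limma, smallest adjusted p 0.933), with 711 (5.21%) at an unadjusted p of at most 0.05 and 330 without the mice whose kidney library was over 0.1%. Of the 24 leading genes, 20 had such a p in that test, with adjusted p of at least 0.933, so no gene was shown to differ between 8 and 5 M otherwise in kidney than in the other organs. The 24 genes were chosen by their p on the same kidney values, so a high count among them was built in and is a description.

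Among the longest genes, far more were higher than lower at 8 M. The span of a gene, from its first to its last annotated base in GRCm38, was available for 16812 of the 16839 genes (99.8%). In the decile of longest genes (1682 genes of 139 kb or more, median 233 kb), 306 (18.2%) were higher and 14 (0.832%) lower at an unadjusted p of at most 0.05, against 5.39% and 6.46% of all genes, and the median log2 difference was 0.26. In the sixth decile (24.3 to 33.8 kb), 65 (3.87%) were higher and 173 (10.3%) lower, with a median of -0.08. The shortest decile had 4.82% higher and 4.28% lower. Without the libraries over 0.1% of brain reads the longest decile had 297 (17.7%) higher and 10 (0.595%) lower. Its median stayed above 0 under other scalings, at 0.25 after quantile normalization, 0.17 in edgeR and 0.12 in DESeq2. Of the 24 leading genes, 8 of the 12 higher and 0 of the 12 lower ones were in the longest decile, and their median spans were 203 kb and 42.6 kb. Of the 90 genes called higher when the 17 libraries were fitted alone, 57 (63.3%) were in that decile, against 0 of the 27 called lower.

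**Figure D3:**
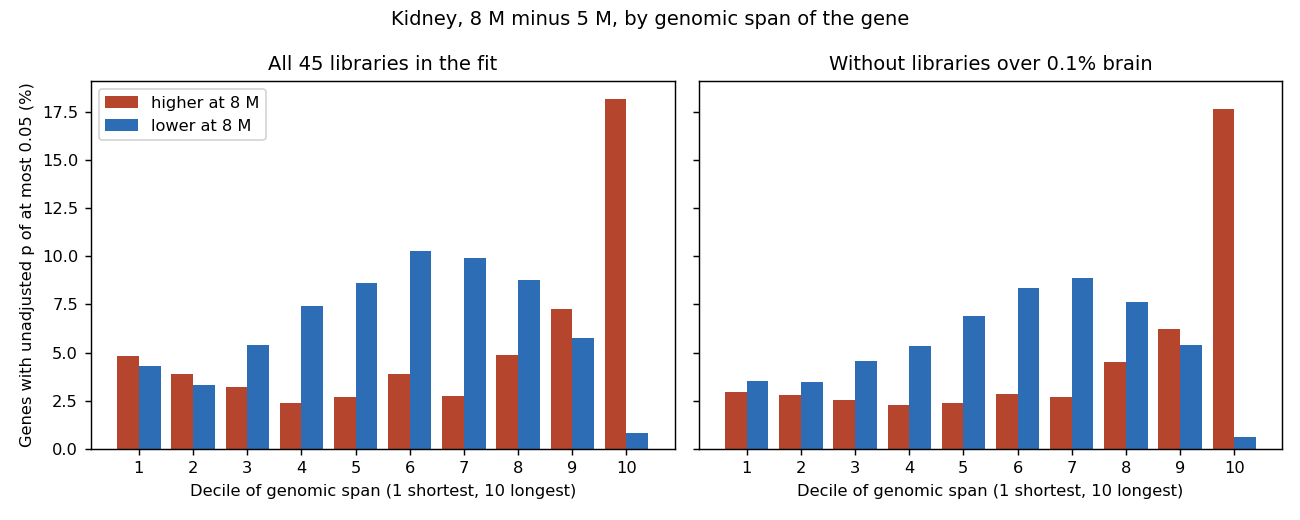
Percent of kidney genes with an unadjusted p of at most 0.05 between 8 and 5 M, in deciles of genomic span from shortest to longest, for all 45 libraries and without those over 0.1% of brain reads. In the longest decile 18.2% were higher and 0.832% lower, and 17.7% and 0.595% without those libraries.

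A related measure, the exonic share of the span, gave a like split. In the decile with the lowest share of exonic bases in the span (0.0363% to 3.77%), 304 genes (18.1%) were higher and 13 lower at 8 M. Whether reads in introns were counted is not given in the sources used here. The share of all reads on the genes of the longest decile averaged 10.3% ± 2.50 (SD, n = 9) at 5 M and 11.5% ± 1.66 (SD, n = 8) at 8 M, a difference of 1.17 percentage points that was within the spread between mice (exact permutation test, two-sided, p = 0.281). Within the 2 sets of mice that the first principal component of heart separates, the difference was 0.960 points (5 mice of 5 M and 4 of 8 M, exact permutation p = 0.603) and 1.53 points (4 and 4, exact permutation p = 0.114). With ages rearranged within the sets, their mean difference of 1.24 points had an exact permutation p of 0.228. Libraries over 0.1% of brain reads held 13.6% to 15.4% at 5 M and 11.8% to 14.1% at 8 M, the highest shares at each age. Without them the shares were 9.14% ± 0.791 (n = 7) and 10.5% ± 0.917 (n = 5), a difference of 1.36 points (exact permutation test, two-sided, p = 0.0278). This measure was chosen after the data were seen.

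The neighbouring ages and the other organs give the size of that pattern elsewhere. The longest decile had a median log2 difference of -0.41 between 5 and 3 M and of -0.47 between 14 and 8 M in kidney, comparisons that share libraries with the present one. Between 8 and 5 M it had medians of -0.03 in heart, -0.22 in lung, 0.18 in skeletal muscle and 0.06 in testis. The share of reads on the kidney's 1682 longest genes differed between 8 and 5 M by -0.211 points in heart, -3.11 in lung, 0.538 in skeletal muscle and 0.434 in testis, none beyond the spread between mice (exact permutation tests, two-sided, p = 0.692, 0.325, 0.449 and 0.309).

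**Figure D4:**
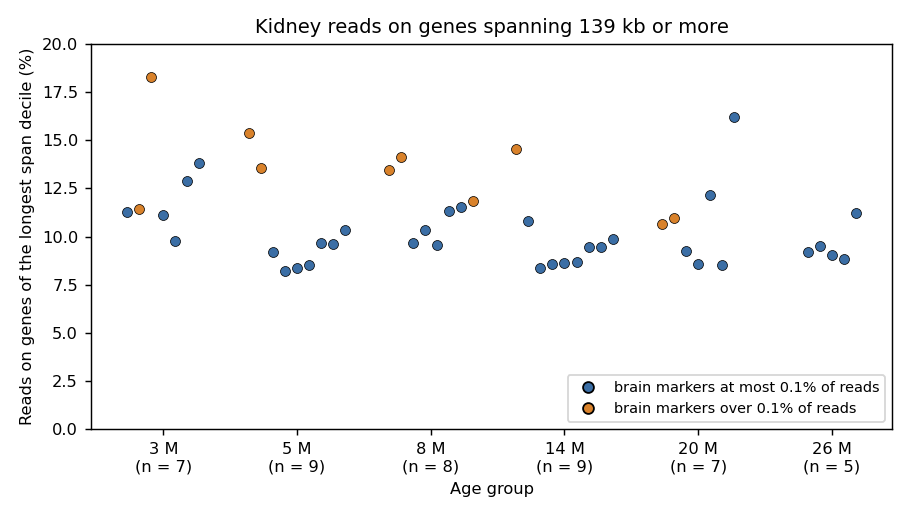
Share of kidney reads on the genes of the longest span decile (percent of the library) by age group, each point 1 mouse, with orange points for libraries with over 0.1% of brain reads. The means were 10.3% at 5 M and 11.5% at 8 M, and 9.14% and 10.5% without the orange points.

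The long noncoding RNAs *Neat1* and *Malat1*, which stay in the nucleus, were examined beside the long genes, also after the data were seen. *Neat1*, the scaffold of paraspeckles (chromosome 19, 5824708 to 5845478), ranged from 7387 to 14329 normalized counts at 5 M and from 12198 to 26946 at 8 M, with medians of 11199 and 15485. Its log2 difference was 0.56 (exact permutation test, two-sided, p = 0.000411) and 0.44 without the libraries over 0.1% of brain reads (p = 0.00253, exact permutation test), while its limma adjusted p was 0.289. *Malat1*, one of the most abundant transcripts, averaged 100323 ± 38908 at 5 M and 158349 ± 59165 at 8 M, with a log2 difference of 0.67 (exact permutation test, two-sided, p = 0.0469) and of 0.60 without those libraries (p = 0.0720, exact permutation test). The unadjusted limma p of *Malat1* was 0.0817, above 0.05, and its limma adjusted p was 0.500.

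Genes of energy metabolism were mixed in direction. Of 37 nuclear genes of oxidative phosphorylation, 0 were higher and 4 lower at an unadjusted p of at most 0.05, and the median log2 difference was 0.03. *Ndufs1*, the largest subunit of complex I, had 660, 1622 and 1978 normalized counts at 5 M (lowest, median and highest) and 309, 698 and 1240 at 8 M, a log2 difference of -1.01 (SE 0.29). *Sdha* of complex II averaged 5239 ± 1249 and 3488 ± 1265, and *Atp5b* of the ATP synthase averaged 13251 ± 4266 and 8217 ± 3735. *Atp5a1*, the partner of *Atp5b* in the catalytic head, was the fourth (log2 difference -0.62, SE 0.31). All 4 were also lower, at an unadjusted p of at most 0.05, without the libraries over 0.1% of brain reads, where the list's median was 0.01.

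Of 18 genes of fatty acid oxidation and its regulator PPAR alpha, 1 was higher and 2 lower, with a median of -0.19, and without the libraries over 0.1% 1 was higher and 4 lower, with a median of -0.30. *Ppara* itself was the higher one, at 265, 667 and 855 normalized counts at 5 M and 515, 1081 and 1508 at 8 M (log2 difference 0.76, SE 0.29). *Hadha*, a subunit of the trifunctional protein of beta-oxidation, had 448, 1281 and 1483 at 5 M and 339, 746 and 1093 at 8 M, and *Acadvl*, the very long chain acyl-CoA dehydrogenase, averaged 691 ± 271 and 417 ± 207. *Acadm*, the medium chain dehydrogenase, and *Ehhadh*, a peroxisomal enzyme, were the further 2 lower genes without those libraries (log2 differences -0.73, SE 0.31, and -0.62, SE 0.27).

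Of 17 genes of cholesterol synthesis and uptake, 0 were higher and 4 lower, with and without those libraries (medians -0.15 and -0.13). *Idi1*, isopentenyl diphosphate isomerase, had 57.3, 219 and 338 normalized counts at 5 M and 25.1, 90.7 and 246 at 8 M (log2 difference -1.13, SE 0.42). *Sc5d*, a sterol desaturase, averaged 1094 ± 66.7 and 862 ± 187, and *Lss*, lanosterol synthase, 23.9 ± 9.72 and 10.6 ± 4.26. Of 10 genes of glucose transport and gluconeogenesis, *Slc2a2*, the basolateral glucose transporter of the proximal tubule, was higher (44.6 ± 17.9 and 80.3 ± 28.4) and *Slc2a1* lower (59.9 ± 17.4 and 39.2 ± 19.2). The list's median was -0.27. The count was again 1 and 1 without the libraries over 0.1% of brain reads, but *Slc2a1* lost its call there (log2 difference -0.44, SE 0.37) and the lower gene was *Pcx*, pyruvate carboxylase (log2 difference -0.47, SE 0.21).

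Of 44 cytosolic ribosomal protein genes, 3 were higher and 0 lower at an unadjusted p of at most 0.05. The list's median log2 difference was 0.24, and 38 members had a difference above 0, as did 49.7% of all genes tested. These were *Rplp1* (363 ± 81.1 and 558 ± 199), *Rpl27* (330 ± 55.6 and 426 ± 94.3) and *Rpl14* (1593 ± 355 and 1988 ± 526). Without the libraries over 0.1% of brain reads 0 were higher or lower and the median was 0.16. Ribosomal protein genes have processed pseudogenes that can share their reads. Of 24 proteasome genes and 16 genes of the unfolded protein response, 0 were higher or lower, with medians of 0.05 and -0.04.

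Stress and injury genes differed in a few members. Of 12 tubular injury genes tested, 2 were higher. *Havcr1*, kidney injury molecule 1 of the proximal tubule, had 12.1, 40.7 and 85.5 normalized counts at 5 M and 15.8, 108 and 157 at 8 M (log2 difference 1.16, SE 0.52), and 1.36 (SE 0.53) without the libraries over 0.1% of brain reads. The 15.8 came from 1 of those libraries. *Spp1*, osteopontin, averaged 3733 ± 1346 and 5008 ± 510, with a log2 difference of 0.52 that was 0.30 (SE 0.25) without those libraries, where 1 of the 12 was higher. Of 12 senescence genes, *Gdf15*, a stress cytokine, was the one higher (19.6 ± 9.10 and 32.2 ± 14.8), and without those libraries *Cdkn1a*, the cell cycle inhibitor p21, and *Cxcl1*, a neutrophil chemokine, joined it (log2 differences 0.67, SE 0.31, and 0.72, SE 0.35). The list's median was 0.46, and 0.22 without those libraries.

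Of 15 heat shock genes, 3 were higher and 2 lower, and 1 and 1 without the libraries over 0.1% of brain reads. *Hsp90aa1*, a chaperone, averaged 6014 and 8681 (log2 difference 0.48, SE 0.23), *Bag3*, a cochaperone, 375 ± 69.3 and 503 ± 72.1, while *Hsph1* averaged 2531 ± 404 and 2013 ± 604 and *Hspa4l* 649 ± 297 and 481 ± 207. Without the libraries over 0.1% of brain reads *Bag3* and *Hspa4l* kept their calls. *Hsp90aa1* (log2 difference 0.42, SE 0.23), *Hsph1* (-0.27, SE 0.19) and *Hspa1a* lost theirs. The value of *Hspa1a* shares reads with its near-identical copy *Hspa1b* and is uncertain. Of 15 genes of the NRF2 and glutathione system, *Keap1*, which holds NRF2 in check, was lower (66.5 ± 17.6 and 42.9 ± 14.2), as was *Txnrd1*, a thioredoxin reductase (1832 ± 296 and 1429 ± 431). *Keap1* alone was lower without the libraries over 0.1% of brain reads, where *Txnrd1* lost its call (log2 difference -0.34, SE 0.18). Of 11 hypoxia response genes, *Bnip3* (122 ± 38.0 and 76.2 ± 30.0), *Pdk1* and *Slc2a1* were lower and *Ndrg1* (4001 ± 1445 and 5585 ± 892) was higher, with a median of -0.23 over the list. Leaving out the libraries over 0.1% of brain reads, 1 was higher and 1 lower, with a median of -0.15, and the calls of *Pdk1* (log2 difference -0.33, SE 0.17) and *Slc2a1* were lost.

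Immune genes gave single members. *Jchain*, the joining chain of secreted antibodies and a plasma cell gene, had 43.9, 123 and 327 normalized counts at 5 M and 193, 298 and 570 at 8 M, a log2 difference of 1.52 (SE 0.44, limma adjusted p = 0.171). It was the one of 6 B and plasma cell genes tested with an unadjusted p of at most 0.05, and all 6 had differences above 0 (median 0.57, and 0.21 without the libraries over 0.1%). *Ciita*, the activator of MHC class II genes, ranged from 1.11 to 14.0 at 5 M and from 14.9 to 28.1 at 8 M, without overlap (log2 difference 1.30, SE 0.40). It was the one of 7 MHC class II genes to be higher, whereas *H2-Aa*, a class II chain, averaged 470 ± 89.6 and 675 ± 291 with an unadjusted limma p of 0.137. Of 16 interferon response genes, 9 macrophage genes and 8 T and NK cell genes, 0 were higher or lower. Of 11 tested inflammation hubs and 6 metabolic hubs that the study chose for late kidney ageing on these samples, 0 were higher or lower (medians 0.06 and -0.11). Of the inflammation hubs, 1 was higher without the libraries over 0.1% of brain reads, *Tlr4*, the receptor of bacterial lipopolysaccharide (log2 difference 0.50, SE 0.19), with a median of -0.03 over those hubs.

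Few markers of the nephron segments reached an unadjusted p of at most 0.05. *Umod*, uromodulin of the thick ascending limb, had 636.3, 3733 and 5040 normalized counts at 5 M and 221, 1720 and 2520 at 8 M (log2 difference -1.42, SE 0.56). Without the libraries over 0.1% of brain reads it averaged 3963 ± 925 in 7 mice of 5 M and 1858 ± 717 in 5 mice of 8 M. There *Egf*, from the same cells, was the second of 7 genes of this segment to be lower (log2 difference -0.59, SE 0.24). With all libraries, 1 of the 7 had a difference above 0, and the list's median was -0.25. Their summed share of reads had a median of 0.435% at 5 M and 0.334% at 8 M. *Slc8a1*, the sodium-calcium exchanger of the distal convoluted tubule, had 775, 1052 and 1576 at 5 M and 1212, 2049 and 3279 at 8 M (log2 difference 0.96, SE 0.30) and spans 365 kb. It was the only higher one of 6 genes of its segment, and none was lower. *Acsm3*, an acyl-CoA synthetase of the S3 proximal tubule that responds to androgen, averaged 710 ± 306 and 352 ± 263 (log2 difference -1.27, SE 0.49). Of 5 S3 genes tested, 0 were higher and *Acsm3* alone was lower, while 3 had differences above 0. The list's median was 0.01, and -0.16 without the libraries over 0.1% of brain reads. The summed S3 markers had a median share of 0.283% of reads at 5 M and 0.357% at 8 M. Of the 12 proximal tubule markers, 0 were higher or lower, 3 had differences above 0 and the median was -0.07. *Slc34a1* had a log2 difference of -0.11 (SE 0.27). The 12 markers together held a median of 1.64% of reads at 5 M and 1.47% at 8 M. Without the libraries over 0.1% of brain reads they averaged 1.62% ± 0.0651 (SD, n = 7) and 1.49% ± 0.0233 (SD, n = 5). The differences in summed share were not tested.

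In the collecting duct, *Hsd11b2*, which shields the mineralocorticoid receptor from cortisol-like steroids, was lower (253 ± 102 and 172 ± 68.0). It was the only lower one of 7 collecting duct genes tested (0 higher, median -0.01). It was also the only lower one of 16 genes of aldosterone and sodium transport. *Scnn1a*, a subunit of the epithelial sodium channel, was the second of these 16 to be lower without the libraries over 0.1% of brain reads (log2 difference -0.31, SE 0.15). *Slc4a1*, the anion exchanger of intercalated cells, was higher (310 ± 84.5 and 403 ± 101). It was the only higher one of 7 intercalated cell genes, with 0 lower, 3 with differences above 0 and a median of -0.02. Of 9 endothelial genes, *Flt1* (804 ± 70.0 and 1126 ± 168) and *Emcn* (908 ± 286 and 1205 ± 259) were higher, and the list's median was -0.09. Without the libraries over 0.1% *Tek*, the angiopoietin receptor, joined them (log2 difference 0.28, SE 0.13), with a median of -0.19. *Flt1*, a VEGF receptor, spans 164 kb. *Pdgfrb*, a receptor of pericytes, was the one of 10 fibroblast and mural cell genes to be higher (124 ± 22.1 and 157 ± 29.0), and 0 were higher without the libraries over 0.1%. Of 18 extracellular matrix genes, *Ccn2* was higher and *Col4a1*, of the basement membrane, was lower (743 ± 247 and 519 ± 156). Among markers that other tissues would bring, 0 of 8 adipocyte, 7 hepatocyte, 5 cardiomyocyte, 7 skeletal muscle, 4 erythroid, 3 lung epithelium and 1 adrenal cortex genes tested were higher or lower, and 0 of 6 germ cell genes of the testis passed the filter on low values. List medians ran from -0.35 (adrenal cortex) to 0.65 (lung epithelium), with cardiomyocyte at 0.35 and erythroid at 0.58. Without the libraries over 0.1% of brain reads these medians were -0.14, -0.02, 0.17 and 0.22. The hepatocyte median was -0.33 there, against 0.25 with all libraries. These counts cannot show reads of other tissues in single libraries. Hepatocyte markers held 0.0824% of reads in mouse 8 of 8 M and 0.0544% in mouse 9 of 5 M (medians 0.0131% and 0.0143%). Skeletal muscle markers held 0.00714% to 0.00775% in the libraries with the letter b (medians 0.000286% at 5 M and 0.000408% at 8 M). Lung epithelium markers held 0.00124% to 0.00244% in the same libraries (medians 9.33e-05% at 5 M and 0.000209% at 8 M).

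Hormone and clock genes showed few differences. *Kap*, the androgen-regulated and very abundant kidney protein gene, averaged 80329 ± 33198 and 93826 ± 35783 (exact permutation test, two-sided, p = 0.451). Of 12 glucocorticoid response genes, *Klf9* was higher, with 1438, 1901 and 2631 normalized counts at 5 M and 2066, 2782 and 4841 at 8 M. *Cdkn1a* was also higher without the libraries over 0.1% of brain reads, so that 2 of the 12 were. Of 16 clock genes, *Nr1d1*, the repressor REV-ERB alpha, was lower (209 ± 47.4 and 137 ± 32.4), while *Dbp*, *Tef* and *Hlf* had log2 differences of -0.61, -0.35 and -0.36 with unadjusted limma p of 0.133, 0.0972 and 0.0692. The count turned to 1 higher and 0 lower without the libraries over 0.1% of brain reads. There *Nr1d1* lost its call, with a log2 difference of -0.60 (SE 0.32) against -0.62 with them, and *Npas2*, a partner of BMAL1, was the higher one (0.59, SE 0.29). Of 11 genes of the renin-angiotensin system 0 were higher or lower, and 3 (*Enpep*, *Anpep* and *Mme*, all peptidases) were lower without the libraries over 0.1% of brain reads, while *Ren1*, renin itself, averaged 111 ± 39.6 and 83.0 ± 19.9. Of 18 immediate early, 16 cell cycle, 12 vitamin D and phosphate and 12 drug transport genes, 0 were higher or lower. Among the immediate early genes, 1 was higher without the libraries over 0.1% of brain reads, *Jund*, a subunit of the AP-1 factor (log2 difference 0.44, SE 0.21).

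**Figure D5:**
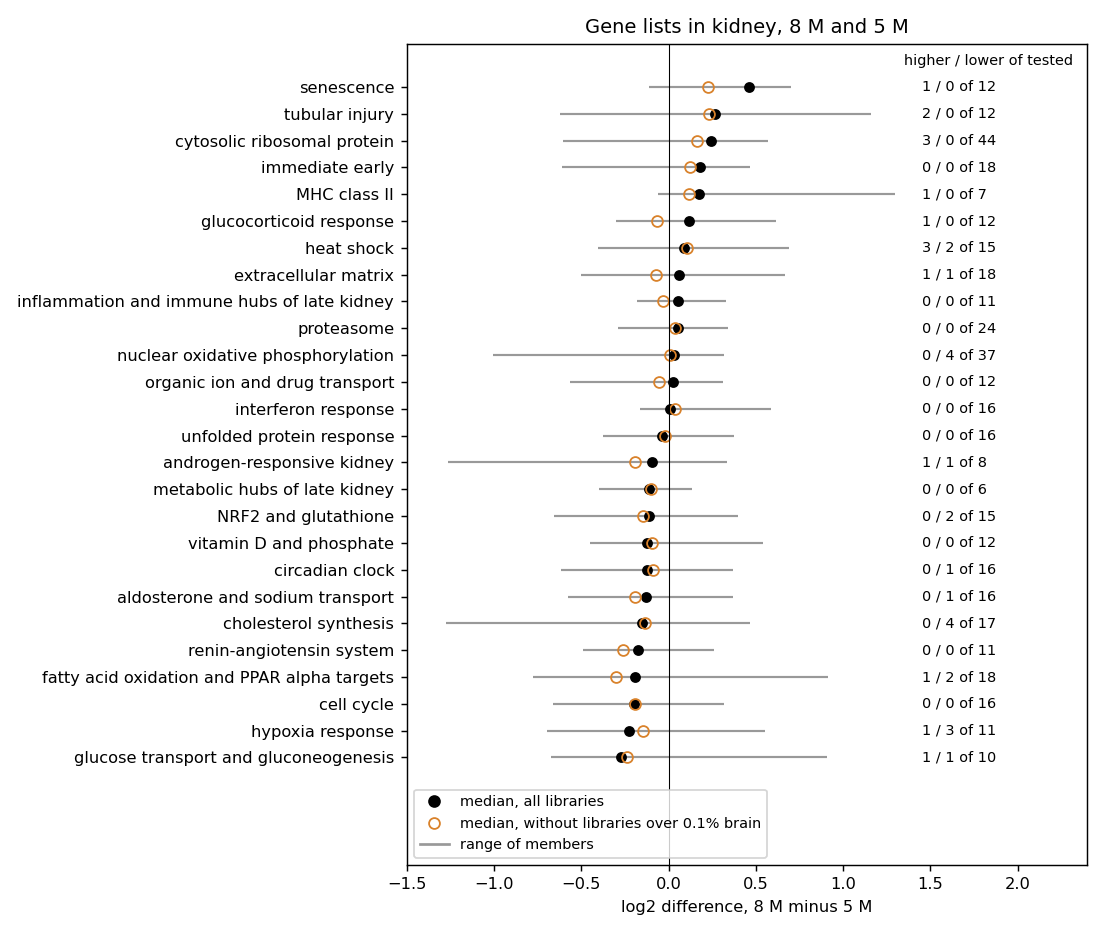
Log2 differences between 8 and 5 M of 26 gene lists in kidney, with the median of the tested members (filled, all libraries; open, without libraries over 0.1% of brain reads), their range (line) and how many were higher or lower at an unadjusted p of at most 0.05. Medians ran from -0.27 (glucose transport) to 0.46 (senescence).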

How the data were processed

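Deposited tables give, for each gene and library, a signal: the count after division by the DESeq2 size factor of the library, set by the authors organ by organ. Per the authors, mRNA was selected on oligo-dT beads, fragmented, primed with random hexamers and amplified by PCR, without molecular identifiers described. Single reads were trimmed with CutAdapt (the processing notes name Trim Galore). They were aligned to GRCm38 with HISAT2 2.1.0 and counted on Ensembl genes with GenomicAlignments, per the authors. The tables of 5 organs (kidney, heart, lung, skeletal muscle, testis) were used. The liver table was not used, since some of its libraries, though not all, equal the heart library of the same mouse. In each kidney library 100% of values were whole multiples of 1 step (tolerance 0.01), which gave the reads.

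Testing took genes that reached 10 normalized counts in 5 or more kidney libraries. It was done with limma 3.58.1 in R 4.3.3 (trended prior, two-sided) on log2(value + 1) over all 45 libraries, with Benjamini-Hochberg adjustment at 0.05. A log2 difference on this scale understates the change of low genes. edgeR 4.0.16 and DESeq2 1.42.0 were run on the reads. The test was checked on simulated data in which genes varied independently, so shifts shared by many genes were not part of that check. Figures were drawn with matplotlib 3.10.9. Single values were compared by exact permutation over the mice. Gene spans came from GENCODE M21 on GRCm38. Named genes were, per direction, the 12 of smallest p with a mean of at least 50 (predicted and RIKEN genes left out), plus up to 4 members of each list by p and its defining members. Members and lists were chosen with earlier results of these data known. The brain list, its 0.1% threshold, the measures of genomic span, *Neat1*, *Malat1* and *Shcbp1* were chosen after seeing these data. Tissues came from separate mice at each age, collected over consecutive days, and replicate numbers are in accession order. Some genes are not reported here.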

Additional observations from a re-analysis of the deposited data

Results flagged for a closer look

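In all, 180 groups, mostly a named gene at 1 age, were tested for a mouse far from the others. Chance would single out 1 in 20 of independent groups, but these share the same 17 libraries, so that rate is not a fair measure. Of the 180 groups, 10 were singled out, and 8 of these lay in libraries with over 0.1% of brain reads. Mouse 2 of 8 M held 6 of them, with 110.4 normalized counts of *Hspa1a* (others 23.0 to 41.2), 978.8 of *Hspa4l* (316 to 468), 15.77 of *Havcr1* (65.6 to 157), 236.5 of *Col4a1* (434 to 732), 47.3 of *Hsd11b2* (118 to 252) and 5768 of *Slc34a1* (17250 to 26090). Mouse 1 of 5 M held 802.1 of *Ehhadh* (others 1868 to 3973) and 2097 of *Egf* (4591 to 10180). In libraries under 0.1%, mouse 9 of 5 M held 830.6 of *Zfand3* (573 to 677) and mouse 4 of 8 M held 128.4 of *Ren1* (66.1 to 90.1). The part of brain reads in these values was not tested.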

How the results depend on the processing

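No gene passed the adjusted threshold with a pseudocount of 0.1, without a filter on low values, after quantile normalization, in edgeR, with the letter b, 2 sets of mice (those that the first principal component of heart separates) or depth as a term, without the libraries over 0.1% of brain reads, or without each of the 17 mice in turn (0 to 0). DESeq2 called 4, the fit of the 17 libraries alone 117, array weights 2006 and the brain share as a covariate 7, and the cause was not tested. Fits of the 17 libraries alone without those over 0.1% called 0, with 2595 genes at an unadjusted p of at most 0.05. The latter number was 1995 in the fit reported, 4430 with array weights, and 1450 (without mouse 7 of 8 M) to 2506 (without mouse 3 of 8 M) when 1 mouse was left out. The share of reads on the longest genes differed by 1.36 points without the libraries over 0.1% (exact permutation p = 0.0278), and by 0.788 (without mouse 2 of 8 M) to 1.80 (without mouse 1 of 5 M) when 1 mouse was left out, with exact p of 0.0561 to 0.473. Over 87 named genes and 2523 alternative values, 83 passed the adjusted threshold, and 1 changed sign, *Slc34a1*, whose log2 difference ran from -0.27 (without mouse 1 of 5 M) to 0.12 (without mouse 2 of 8 M). The test of kidney against single other organs called 0 genes in each of the 4 organs. Libraries of 5230524 reads and more limit genes near 10 counts. No paired analysis was possible because the ages are different mice and their replicate numbers, given in accession order, name samples without pairing them.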
